A study of Mus musculus with 6 samples.

Results

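The response to the inhibitor SB431542 was compared between mouse epiblast stem cell (EpiSC) lines and mouse embryonic stem (mES) cells. All 6 arrays of the series enter this comparison, and each is the only array of its group. Untreated mES cells (labelled E3.5), an untreated EpiSC line from E5.5 embryos and an untreated EpiSC line from E3.5 embryos each had a partner given 20 µM SB431542 daily for 4 days. All samples carry the 129 strain label and grew in the same serum replacement medium, which the labels give without further factors, and no label says how many cultures or clones stand behind an array. The tests therefore see no more than the spread among these arrays, which may be technical. For each gene the response of a line is the treated minus the untreated log2 level, where a level is the signal relative to the array's 75th percentile. The quantity tested is the mean response of both EpiSC lines minus the mES response, here called the difference. A negative difference means that the gene moved further down, or less far up, in the EpiSC lines than in mES cells.

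The small molecule SB431542 inhibits the receptor kinases through which Activin, Nodal and TGF-beta signal, so that Smad2 and Smad3 are no longer phosphorylated. Nodal signals induce their own inhibitors, the Lefty proteins and Cer1, and the inhibitory Smad7 and Skil, which form the feedback arm of the pathway. EpiSCs correspond to the primed epiblast after implantation and need Activin or Nodal to stay pluripotent, whereas mES cells correspond to the naive epiblast of the blastocyst and are kept pluripotent by LIF signals. Without Activin and Nodal signals the epiblast turns readily to neuroectoderm.

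The arrays were alike in the share of spots above background but not in brightness. The share of spots called well above background ran from 82.6% to 85.7% over the arrays, 0 spots were saturated, and 16152 named genes were tested. The 75th percentile of intensity was 1190 and 1801 on the untreated and treated E3.5 EpiSC arrays and 1228 to 1459 on the others. The untreated E3.5 EpiSC array had 101 outlier spots, and the others 52 to 66. The labelled cell classes parted by 7 naive markers (Zfp42, Esrrb, Klf4, Tbx3, Nr0b1, Dppa3 and Pecam1). Their summed linear level was 113 and 147 in untreated and treated mES cells and 1.44 to 2.26 on the EpiSC arrays, in units of the array's 75th percentile. The same sum over 7 EpiSC markers (Fgf5, Otx2, T, Eomes, Foxa2, Cer1 and Pou5f1) was 69.2 and 3.32 in the untreated and treated E3.5 line. It was 111 and 0.999 in the E5.5 line and 49.6 and 41.8 in mES cells. The mES sums were nearly all Pou5f1, at log2 levels of 5.59 untreated and 5.35 treated. The median log2 level of the 7 markers was -2.62 and -4.10 in untreated and treated mES cells. It was 0.98 and -5.39 in the E3.5 line and 3.37 and -4.38 in the E5.5 line. The summed level of 28 fibroblast markers, which feeder cells would also carry, was 51.8 and 78.2 on the untreated and treated mES arrays, 95.3 and 80.9 in the E3.5 line and 158 and 148 in the E5.5 line. Both mES arrays and both E5.5 EpiSC arrays share a slide. The E3.5 EpiSC arrays lie on a slide each, so that slide and treatment cannot be told apart in that line. In such bulk samples fewer cells of a type and less RNA per cell cannot be told apart.

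Fewer genes passed 2-fold after SB431542 in mES cells than in either EpiSC line. Responses had a standard deviation over genes of 0.39 on the log2 scale in mES cells, 1.29 in the E3.5 EpiSC line and 0.96 in the E5.5 EpiSC line. Their medians over genes were 0.016, -0.313 and -0.055 in the same order, so the E3.5 responses were shifted downward as a whole. At least 2-fold higher signal after treatment was seen for 245 genes in mES cells (1.52% of all tested), 1873 in the E3.5 line (11.6%) and 1080 in the E5.5 line (6.69%). At least 2-fold lower signal was seen for 210 (1.3%), 3310 (20.5%) and 1475 genes (9.13%). Across the 16152 genes, which are not independent replicates, the responses of the EpiSC lines correlated with each other (Pearson's r = 0.70, Spearman's rho = 0.65) and only weakly with that of mES cells (r = 0.14 and rho = 0.07 for the E3.5 line, r = 0.13 and rho = 0.04 for the E5.5 line).

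The difference itself was tested gene by gene with limma in a fit of 4 arms, in which the 2 EpiSC lines are replicates of their class and the lone mES arrays are assumed to vary like them. No gene passed at an adjusted p of 0.05 (0 of 16152, smallest adjusted p = 0.286), and 1109 (6.87%) had an unadjusted p under 0.05, of which 518 (3.21%) had a positive and 591 (3.66%) a negative difference. With the cell line as a block 0 passed too (smallest adjusted p = 0.16). The fit has 2 residual degrees of freedom, and on simulated data its test of the difference missed most genes given a log2 difference of 4. The effect averaged over the 3 lines, tested with line plus treatment, also passed for 0 genes, with 556 higher (3.44%) and 841 lower (5.21%) at an unadjusted p under 0.05. Differences are therefore given below with their 95% confidence intervals, each with an adjusted p of 0.286 or more in the fit of 4 arms. Their intervals and SEs are from that fit, without the block. With the line as a block the SE of the difference was smaller for Lefty1 (0.525 against 1.007) and Otx2 (0.697 against 1.803). It was slightly larger for Irx5 (0.486 against 0.451) and Krt8 (0.943 against 0.921). An interval that holds zero may therefore exclude it with the block. Sorting of genes by pattern is a description by a 2-fold rule, without a test. Over all genes the median difference was -0.21, with quantile normalization -0.12 and with normexp background correction -0.35.

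The side of the comparison with 2 arrays per arm did give calls. In the EpiSC lines 144 genes rose (0.892% of all tested) and 194 fell (1.2%) by limma with Benjamini-Hochberg adjustment, and 1332 (8.25%) and 1869 (11.6%) were higher and lower at an unadjusted p under 0.05. With the line as a block the counts were 346 and 464, and all 338 genes called without it were among them. Without the treated array of either EpiSC line 0 genes passed, without the untreated E3.5 array 72 rose and 123 fell, and without the untreated E5.5 array 91 and 152. Of the 194 genes that fell, 22 (11.3%) were at least 2-fold lower in mES cells as well, against 1.3% of all genes, and these are 10.5% of the 210 genes so lowered in mES cells. Of the 144 that rose, 7 (4.86%) were at least 2-fold higher in mES cells, against 1.52% of all genes, or 2.86% of the 245. The others mostly stood near zero in mES cells, with 168 and 133 under 2-fold and 4 and 4 at least 2-fold the other way. The median response of the fallen genes was -3.15 in the EpiSC lines and -0.11 in mES cells, and that of the risen genes 3.29 and 0.11. These genes were selected by their EpiSC response, so a large EpiSC median follows in part from that choice. Of the fallen genes 185 of 194, and of the risen genes 124 of 144, were well above background on both mES arrays.

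**Figure D1:**
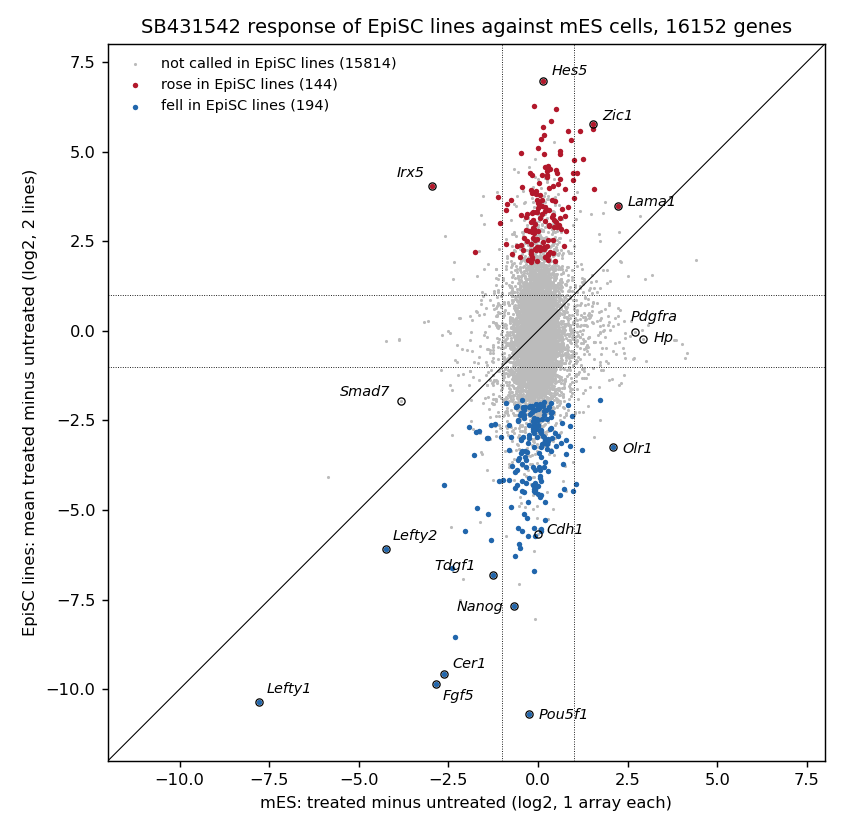
Each point is 1 of 16152 genes, with the treated minus untreated log2 level in mES cells (1 array each) on the x axis and the mean of the E3.5 and E5.5 EpiSC lines on the y axis; red and blue mark the 144 genes that rose and the 194 that fell in the EpiSC lines, dotted lines mark 2-fold, and the diagonal marks equal responses. The called genes form a vertical band near zero in mES cells, and Lefty1, Lefty2 and Smad7 stand out at the lower left.

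By the 2-fold rule 76 genes (0.471% of all tested) were lower and 28 (0.173%) higher in all 3 lines. Both EpiSC lines passed 2-fold while mES cells did not for 931 lower (5.76%) and 751 higher genes (4.65%), of which 876 and 649 were above background on both mES arrays. Only mES cells passed 2-fold for 77 higher (0.477%) and 50 lower genes (0.31%), of which 64 and 25 were above background on both mES arrays. Of the 50 lower genes 22 were above background on 1 mES array and 3 on neither. The classes passed 2-fold in opposite directions for 14 genes with the EpiSC lines higher (0.0867%) and 14 with them lower (0.0867%). Of these 7 and 11 were above background on both mES arrays. Whatever mES cells did, both EpiSC lines passed 2-fold for 793 higher (4.91%) and 1021 lower genes (6.32%). These counts depend on the background correction, as given with the processing alternatives.

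Feedback inhibitors of Nodal were lower after treatment in both cell classes. On the log2 scale Lefty1, a secreted Nodal inhibitor, stood at 3.58 untreated and -4.21 treated in mES cells, at 5.31 and -5.30 in the E3.5 EpiSC line and at 6.17 and -3.94 in the E5.5 EpiSC line. The lowest untreated level lay 7.53 log2 units above the highest treated one. Lefty1 fell by 10.36 ± 0.58 in the EpiSC lines (SE, n = 2 and 2, limma adjusted p = 0.0228), beside -7.79 in mES cells, so that the difference was -2.57 ± 1.01 (95% interval -5.21 to 0.07). Lefty2, its neighbour in function, stood at 0.97 and -3.28 in mES cells, 1.64 and -4.30 in the E3.5 line and 3.20 and -3.04 in the E5.5 line. Its response was -4.25 in mES cells against a fall of 6.09 ± 0.71 in the EpiSC lines, a difference of -1.84 (-5.05 to 1.37). The treated levels of the 3 lines spanned 1.35 log2 units for Lefty1 and 1.27 for Lefty2.

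Other feedback genes and targets differed in which cell class moved further. Smad7, the inhibitory Smad, went from 1.23 to -2.59 in mES cells, from 1.13 to -0.63 in the E3.5 line and from 2.09 to -0.08 in the E5.5 line. Smad7 is thus among the few feedback genes whose estimate was larger in mES cells (-3.83 against -1.96 ± 0.44 in the EpiSC lines, adjusted p = 0.113 and 0.0395 with the line as a block), with a difference of 1.86 (-0.15 to 3.87). Skil, a corepressor of Smad proteins, was lower by nearly the same amount everywhere, at -1.25 in mES cells, -1.86 in the E3.5 line and -1.16 in the E5.5 line, and its difference of -0.27 had an interval from -1.93 to 1.39. Of 15 measured Nodal feedback and target genes 5 fell and 0 rose in the EpiSC lines (9 fell with the line as a block), 13 were at least 2-fold lower in both EpiSC lines and 7 in mES cells. Their median response was -2.82 in the EpiSC lines and -0.75 in mES cells, beside -0.19 and 0.02 over all genes. Of their differences 12 of 15 were negative, against 10011 of 16152 over all genes.

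Receptor and transducer genes differed less between the classes. Of 10 receptor and co-receptor genes 1 fell in the EpiSC lines, the Nodal co-receptor Tdgf1 (2 with the line as a block). Tdgf1 went from 3.99 to 2.72 in mES cells, from 2.67 to -4.33 in the E3.5 line and from 3.44 to -3.19 in the E5.5 line, with a difference of -5.55 ± 0.89 (-7.89 to -3.21). The type I receptor genes Acvr1b and Tgfbr1 had differences of -0.80 (-2.13 to 0.54) and 1.47 (-0.38 to 3.33), and the type II receptor gene Acvr2b one of 0.02 (-1.19 to 1.23). Of 7 transducer genes 0 passed in the EpiSC lines by limma (1 higher and 1 lower at an unadjusted p under 0.05), and Smad2 (0.22, -1.14 to 1.59), Smad4 (0.06, -1.10 to 1.21) and the DNA-binding partner Foxh1 (-0.37, -1.53 to 0.79) had differences near zero. Smad3 was higher in both EpiSC lines (1.58 and 1.38) and not in mES cells (-0.37), a difference of 1.85 (0.68 to 3.02), or 0.57 by its other probe. Of 8 ligand genes 0 passed in the EpiSC lines by limma (1 higher and 3 lower at an unadjusted p under 0.05), and 2, Gdf3 and Tgfb1, fell with the line as a block. Gdf3 had responses of -7.94 and -4.37 in the E3.5 and E5.5 lines beside -0.12 in mES cells. Those of Tgfb1 were -2.06 and -1.86 beside 0.28.

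Several genes of the primed epiblast and primitive streak were lower after treatment in all 3 lines, from a higher start and by more in the EpiSC lines. Fgf5, a growth factor of the epiblast after implantation, stood at -2.62 and -5.48 in untreated and treated mES cells, at 3.07 and -6.29 in the E3.5 line and at 4.32 and -6.04 in the E5.5 line. The treated levels spanned 0.82 log2 units and the untreated ones 6.94. Fgf5 fell by 9.86 ± 0.49 in the EpiSC lines (adjusted p = 0.0228) beside -2.86 in mES cells, a difference of -7.00 ± 0.84 (-9.22 to -4.79). T, the streak factor Brachyury, went from -2.40 to -4.10 in mES cells, from 1.48 to -3.64 in the E3.5 line and from 1.07 to -3.71 in the E5.5 line. Its treated levels spanned 0.46 log2 units, and the difference was -3.25 (-4.55 to -1.95). Fgf8, another growth factor of the streak, had responses of -1.31, -5.53 and -6.12 in mES cells and the E3.5 and E5.5 lines, with a difference of -4.51 (-5.85 to -3.18). Of 25 primed epiblast genes 1 rose and 5 fell in the EpiSC lines (8 fell with the line as a block), with medians of -1.60 in the EpiSC lines and -0.06 in mES cells.

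Cer1, an inhibitor of Nodal and BMP, was at -5.54 in untreated mES cells and not well above background in treated ones, at least 1.65-fold lower. In the EpiSC lines, at 0.62 (E3.5) and 3.72 (E5.5) before treatment and at background after it, Cer1 was at least 449-fold lower (limma adjusted p = 0.043). The fitted difference of -6.95 (-12.35 to -1.54) thus rests on signals at background. Wnt8a, a Wnt ligand of the streak, was lower in all 3 lines (-2.10 in mES cells, -9.06 in the E3.5 line, -4.82 in the E5.5 line; EpiSC adjusted p = 0.063 and 0.037 with the line as a block). Eomes fell by 4.92 ± 0.60 in the EpiSC lines beside -0.75 in mES cells. Gsc had responses of -6.51 and -7.62 in the EpiSC lines beside -0.52 in mES cells (EpiSC limma adjusted p = 0.0807, and 0.012 with the block). Of 27 mesendoderm and streak genes 5 fell and 0 rose in the EpiSC lines (9 fell with the block), and 5 were at least 2-fold lower and 2 at least 2-fold higher in mES cells. The last were Pdgfra and Hand1 (1.66). The list's medians were -0.91 in the EpiSC lines and -0.14 in mES cells.

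Several genes that low oxygen induces were lower after treatment in both classes. Bnip3, a mitophagy receptor, went from 4.18 to 2.93 in mES cells, from 3.86 to 2.13 in the E3.5 line and from 3.84 to 2.70 in the E5.5 line, with a difference of -0.18 (-1.60 to 1.24). Egln3, an oxygen-sensing hydroxylase, had responses of -1.81, -2.53 and -2.94 in the same order. Those of the lactate exporter Slc16a3 were -1.34, -3.84 and -2.21. Ndrg1 parted more, with responses of -1.04 in mES cells and -3.28 and -5.19 in the EpiSC lines (difference -3.19, -6.02 to -0.36). Of 29 genes of glycolysis and the hypoxia response 0 passed in the EpiSC lines by limma (2 higher and 21 lower at an unadjusted p under 0.05), and 5 fell with the line as a block, among them Egln3, Slc16a3 and Ndrg1 (adjusted p = 0.0226, 0.0418 and 0.0282). At least 2-fold lower signal was seen for 17 in both EpiSC lines and for 6 in mES cells, with medians of -1.23 and -0.55.

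Core pluripotency genes separated the classes, and Pou5f1 had the most negative difference of the 16152 genes. Pou5f1, which encodes Oct4, stood at 5.59 untreated and 5.35 treated in mES cells, at 5.73 and -5.39 in the E3.5 line and at 5.88 and -4.38 in the E5.5 line. The 3 untreated levels and the treated mES level spanned 0.54 log2 units, and both treated EpiSC levels lay far below them. The response was -0.24 in mES cells and -10.70 ± 0.42 in the EpiSC lines (adjusted p = 0.0228), a difference of -10.45 ± 0.73 (-12.36 to -8.55, adjusted p = 0.286). Nanog stood at 3.48 and 2.81 in mES cells, 2.80 and -5.11 in the E3.5 line and 3.60 and -3.84 in the E5.5 line. Its difference was -7.01 ± 0.96 (-9.53 to -4.51). Sox2, which neural progenitors also carry, had responses of 0.11, 0.66 and 0.32 and a difference of 0.38 (-0.89 to 1.65).

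Other pluripotency-associated genes had negative differences. Eras, a Ras-like gene of pluripotent cells, had a difference of -6.60 (-8.40 to -4.80), Utf1, a chromatin factor, one of -5.64 (-7.92 to -3.36), and Zscan10 one of -2.95 (-4.46 to -1.44), while their mES responses were -0.11, -0.10 and 0.10. Pim2, a survival kinase, went from 2.89 to 2.39 in mES cells, from 5.04 to -0.92 in the E3.5 line and from 5.33 to -0.81 in the E5.5 line. The difference of -5.55 (-6.78 to -4.31) had an interval that excluded zero, as did that of Nanog. Of 17 core pluripotency genes 6 fell and 0 rose in the EpiSC lines (9 fell with the line as a block), 12 were at least 2-fold lower in both lines, and 1, Tdgf1, was so in mES cells. The medians were -2.43 in the EpiSC lines and -0.12 in mES cells, with 15 of 17 differences negative, against 10011 of 16152 over all genes. The DNA methyltransferase gene Dnmt3b went from 4.55 to 4.63 in mES cells, from 4.41 to 0.08 in the E3.5 line and from 4.58 to 0.54 in the E5.5 line, a difference of -4.26 (-5.61 to -2.91).

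Naive pluripotency genes stood at similar levels in untreated and treated mES cells. Zfp42 stood at 5.77 and 6.17, Esrrb at 4.29 and 4.57, Klf4 at 3.86 and 4.28 and Dppa3 at 3.07 and 3.79 in untreated and treated mES cells. In the EpiSC lines Zfp42, Esrrb and Dppa3 were low on every array, and the intervals of their differences all held zero. Of 24 naive genes 4 fell in the EpiSC lines, namely Eras, Nanog, Fbxo15 and Nr5a2 (1 rose and 5 fell with the line as a block), and none of the 24 reached 2-fold either way in mES cells. The medians were -0.72 in the EpiSC lines and 0.12 in mES cells.

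**Figure D2:**
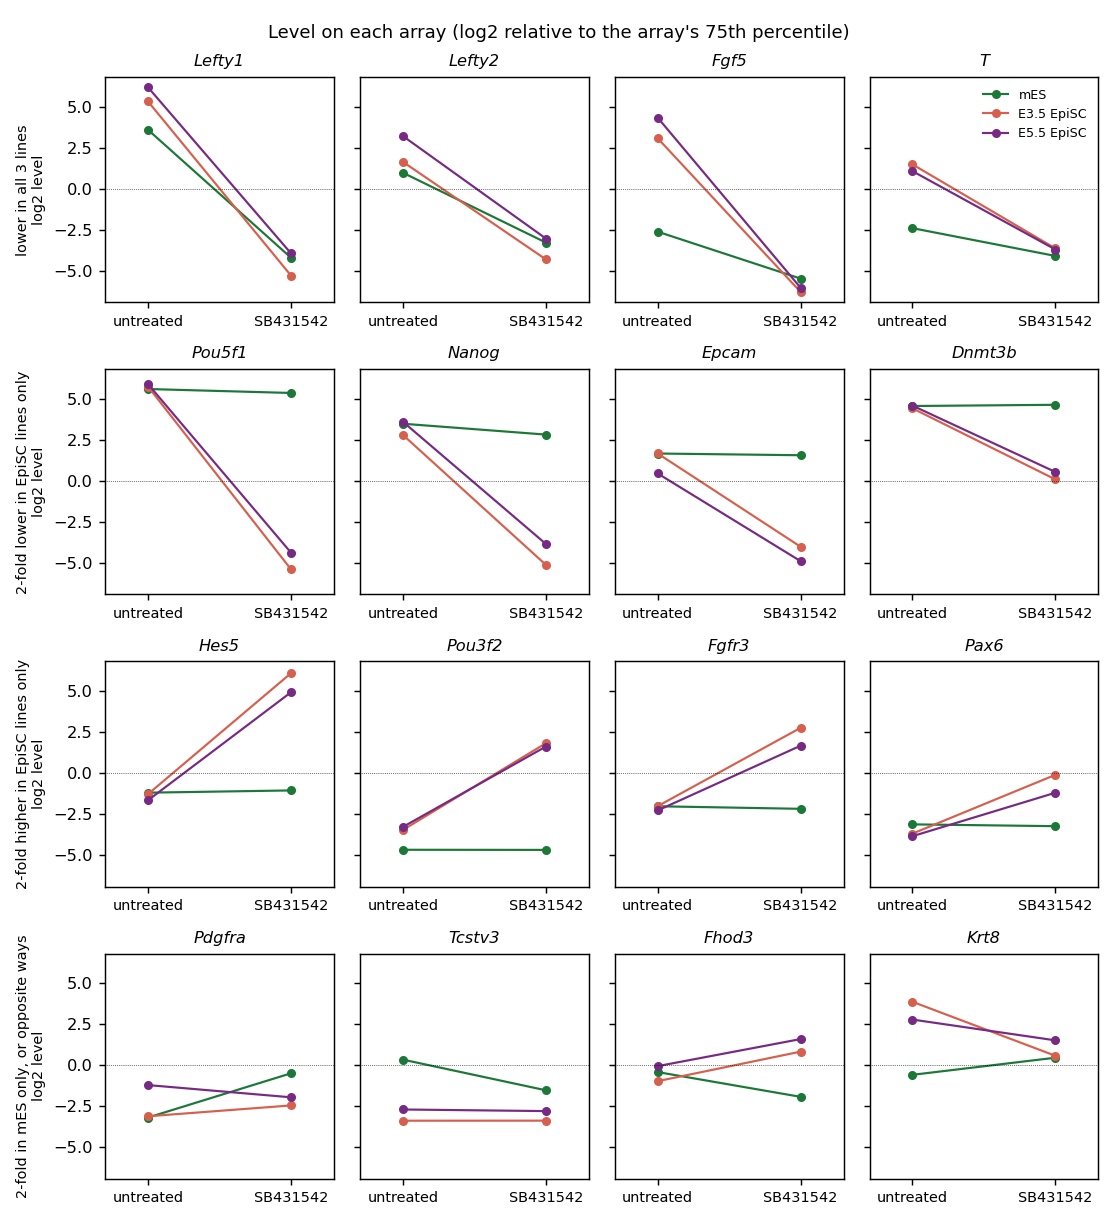
Each panel gives a gene's log2 level (y axis, relative to the array's 75th percentile) on the untreated and the SB431542-treated array of mES cells (green), the E3.5 EpiSC line (orange) and the E5.5 EpiSC line (purple), 1 array per point, with rows by response pattern. For the genes of the middle rows, such as Pou5f1 at 5.59 and 5.35, the mES line is nearly flat and both EpiSC lines move together.

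Epithelial genes were lower in the EpiSC lines and near zero in mES cells. Cdh1, which encodes E-cadherin, stood at 2.76 and 2.75 in mES cells, 2.20 and -3.27 in the E3.5 line and 0.53 and -5.35 in the E5.5 line. Its difference was -5.67 (-9.80 to -1.54), and its EpiSC response passed only with the line as a block (adjusted p = 0.0636 without and 0.012 with it). The adhesion gene Epcam (difference -5.41, -7.91 to -2.90), the junction gene F11r (-4.57, -5.74 to -3.40) and the tricellular junction gene Marveld2 (-2.66, -3.95 to -1.37) fell in the EpiSC lines, with mES responses of -0.10, 0.00 and -0.13. Of 27 epithelial genes 3 fell and 0 rose (8 fell with the block), 15 were at least 2-fold lower in both EpiSC lines, and 1, Krt8, was at least 2-fold higher in mES cells. The medians were -2.28 and -0.11. Cdh2, which encodes N-cadherin, had responses of 3.04 and 1.22 in the EpiSC lines and -0.08 in mES cells, a difference of 2.22 (-0.16 to 4.59), and the intermediate filament gene Vim responses of 0.70, 1.26 and -0.18.

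Genes of FGF and ERK signalling, a list of response genes that also holds ligands and receptors, changed in both directions in the EpiSC lines. The feedback inhibitor Spry4 and the Ets factors Etv1 and Etv4 fell, with differences of -2.86 (-4.57 to -1.14), -3.18 (-4.46 to -1.91) and -3.35 (-5.18 to -1.52), beside mES responses of 0.09, -0.35 and 0.27. The receptor genes Fgfr2 and Fgfr3 rose, with differences of 3.61 (2.01 to 5.20) and 4.51 (2.49 to 6.53) and mES responses of 0.42 and -0.15. The other probes of Fgfr2 gave smaller differences, of 2.12 and 0.50. Of 23 genes in the list 2 rose and 5 fell in the EpiSC lines (3 and 6 with the line as a block), and 1 was at least 2-fold higher (Phlda1, 1.21) and 2 at least 2-fold lower (Fgf5 and Fgf8) in mES cells. The medians were -1.02 and -0.16.

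Many neuroectoderm genes were higher in treated EpiSC lines and near zero in mES cells. Hes5, a Notch effector of neural progenitors, stood at -1.20 and -1.06 in mES cells, at -1.28 and 6.08 in the E3.5 line and at -1.66 and 4.92 in the E5.5 line. The 3 untreated lines and treated mES cells spanned 0.60 log2 units, and both treated EpiSC lines lay far above them. The difference was 6.83 ± 0.82 (4.69 to 8.98). Pou3f2, a neural POU factor, went from -4.67 to -4.68 in mES cells, from -3.47 to 1.81 in the E3.5 line and from -3.28 to 1.61 in the E5.5 line, a difference of 5.10 (3.88 to 6.31). Among the 10 largest positive differences were also the basic helix-loop-helix gene Bhlhe23 (6.39, 4.41 to 8.38), the dorsal neural tube homeobox gene Msx3 (5.49, 3.33 to 7.66) and Onecut1 (5.26, 3.59 to 6.94), which rose in the EpiSC lines and had mES responses of -0.12, 0.35 and 0.08. Nr2f1, a nuclear receptor of the developing brain, was not well above background on either mES array and rose by 6.19 ± 0.56 in the EpiSC lines. The eye and forebrain factor Pax6 had responses of 3.58 and 2.65 in the EpiSC lines and -0.11 in mES cells. Its difference was 3.22 (1.23 to 5.22), with an EpiSC adjusted p of 0.0525 by limma and 0.0243 with the line as a block.

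Of 52 measured neuroectoderm genes 13 rose and 0 fell in the EpiSC lines by limma (30 higher and 6 lower at an unadjusted p under 0.05), and 25 rose and 2 fell with the line as a block. At least 2-fold higher signal was seen for 29 in both EpiSC lines and for 3 in mES cells, namely Zic1, Meis1 and Sox21. The medians were 1.89 in the EpiSC lines and -0.01 in mES cells. Over all genes 6141 differences were positive and 10011 negative, and in this list 40 were positive and 12 negative. Among the negative ones were the anterior factors Otx2 (-3.71, -8.44 to 1.03) and Otx1 (-2.44, -5.49 to 0.61), the 2 genes that fell in the EpiSC lines with the block (adjusted p = 0.0199 and 0.0293). The summed linear level of Pax6, Sox1, Hes5, Nr2f1 and Zic1 was 0.83 and 1.11 in untreated and treated mES cells, 1.40 and 105 in the E3.5 line and 1.53 and 97.2 in the E5.5 line. In the treated EpiSC lines these sums were nearly all Hes5 and Zic1. The median log2 level of the 5 markers went from -2.747 to 1.899 in the E3.5 line. It went from -2.795 to 1.340 in the E5.5 line and from -3.087 to -2.520 in mES cells. Sox1, an early neural marker, had a difference of 0.45 (-0.81 to 1.70).

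Promoters of 4 of these genes are shown because the genes fell (Cer1, Nanog and Pim2) or rose (Hes5) in the EpiSC lines. They are the 250 bases before the start site on the gene's strand, taken from RefSeq on GRCm38.p6, at chr4:82885152-82885401 (minus strand), chr6:122707239-122707488 (the first of 2 windows listed for Nanog), chrX:7878056-7878305 and chr4:154960673-154960922 (plus strand). Capitals mark matches, on either strand, to the octamer TTTGCAT bound by POU factors, the Sox motif ACAAT, the Rbpj motif GTGGGAA of Notch signalling, the Smad motif CAGACA and the Foxh1 motif AATCCACA.

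Cer1: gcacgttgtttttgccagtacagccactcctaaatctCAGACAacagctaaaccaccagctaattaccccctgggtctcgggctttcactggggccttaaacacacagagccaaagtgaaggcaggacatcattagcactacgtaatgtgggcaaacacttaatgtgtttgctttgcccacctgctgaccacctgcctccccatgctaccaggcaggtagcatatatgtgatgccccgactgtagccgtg

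Nanog: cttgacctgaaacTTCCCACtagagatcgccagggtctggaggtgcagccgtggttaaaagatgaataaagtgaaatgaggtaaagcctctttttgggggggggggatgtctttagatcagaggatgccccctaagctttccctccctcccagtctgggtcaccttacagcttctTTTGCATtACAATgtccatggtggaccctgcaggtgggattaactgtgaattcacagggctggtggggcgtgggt

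Pim2: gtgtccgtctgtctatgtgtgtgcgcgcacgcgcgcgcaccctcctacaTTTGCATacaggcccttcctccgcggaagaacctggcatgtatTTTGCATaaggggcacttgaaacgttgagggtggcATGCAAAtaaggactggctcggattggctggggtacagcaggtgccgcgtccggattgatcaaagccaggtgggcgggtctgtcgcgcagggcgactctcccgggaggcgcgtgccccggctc

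Hes5: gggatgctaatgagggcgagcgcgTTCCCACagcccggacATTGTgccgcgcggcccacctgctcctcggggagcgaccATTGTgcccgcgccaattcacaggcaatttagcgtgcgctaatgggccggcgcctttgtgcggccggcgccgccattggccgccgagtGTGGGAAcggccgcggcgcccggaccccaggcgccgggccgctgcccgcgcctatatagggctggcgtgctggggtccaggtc

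Nanog holds an octamer 75 bases and a Sox match 67 bases before its start site, which lie side by side, and an Rbpj match farther up. Pim2 holds 3 octamers, at 201, 158 and 123 bases. Hes5 holds Rbpj matches at 226 and 83 bases and Sox matches at 210 and 171. Cer1 holds 1 Smad match and none of the other motifs. Of all 32851 promoter windows of this length 4.12% hold the octamer, 27.7% the Sox motif, 5.42% the Rbpj motif, 17.1% the Smad motif and 0.718% the Foxh1 motif. Of genes with a window, 152 fell and 105 rose in the EpiSC lines. The octamer was held by 6.58% of those that fell and 9.52% of those that rose, against 4.25% of tested genes. In the same order the shares were 21.1%, 26.7% and 25.1% for the Sox motif and 4.61%, 6.67% and 6.34% for the Rbpj motif. They were 18.4%, 13.3% and 16.9% for the Smad motif and 0%, 0.952% and 0.722% for the Foxh1 motif. Matches are letters in these windows, and a link to the responses was not tested.

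Genes higher in all 3 lines were fewer. Lama1, a basement membrane laminin, went from -1.55 to 0.69 in mES cells, from -3.25 to 0.34 in the E3.5 line and from -3.81 to -0.46 in the E5.5 line. Lama1 had a response of 2.24 in mES cells and rose in the EpiSC lines, by 3.47 ± 0.41 (adjusted p = 0.0398), with a difference of 1.23 (-0.62 to 3.08). Zic1, a factor of dorsal neural tissue, stood at -3.09 and -1.54 in mES cells, at -0.43 and 5.03 in the E3.5 line and at -0.10 and 5.99 in the E5.5 line, a difference of 4.23 (2.33 to 6.13). Meis1 (1.57 in mES cells, 3.97 ± 0.27 in the EpiSC lines), the endothelin receptor gene Ednrb (1.54 and 5.63) and Cyp26b1, which degrades retinoic acid (1.08 and 4.39), rose in the EpiSC lines and passed 2-fold in mES cells, each with a positive difference. Among 17 retinoic acid genes 4 rose and 1 fell in the EpiSC lines (5 and 2 with the line as a block) and 3 were at least 2-fold higher in mES cells. One of the 3 was Aldh1a3, a retinoic acid producing enzyme, not above background in untreated mES cells and at least 2.77-fold higher in treated ones. Aldh1a3 had responses of -0.69 and -1.51 in the EpiSC lines and a fitted difference of -2.85 (-4.35 to -1.35).

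Genes of the endoderm and stroma made up part of the higher signal in treated mES cells. Pdgfra, a receptor of primitive endoderm and of mesenchyme, went from -3.18 to -0.49 in mES cells, from -3.11 to -2.45 in the E3.5 line and from -1.21 to -1.96 in the E5.5 line. Treated mES cells had the highest level of the 6, and the difference was -2.73 (-5.87 to 0.40). A dimmer probe of Pdgfra had a response of 0.52 in mES cells. Of 26 genes of primitive and visceral endoderm 11 were at least 2-fold higher and 0 lower in mES cells, against 1.52% of all genes. They included the basement membrane genes Lama1, Col4a1 (1.72) and Col4a2 (2.02), the endocytic receptor gene Cubn (1.57), Sox7 (1.95), Dab2 (1.91) and Thbd (2.61). For the defining factors Gata4, Gata6 and Sox17 the responses of both classes depended on the probe. Their brightest probes, which the counts use, gave 0.28, 0.14 and 0.47 in mES cells and 0.35, -0.35 and -0.52 in the EpiSC lines. The other probes of Gata6, above background on all 6 arrays, gave 2.60 and 1.66 in mES cells and -3.04 and -2.51 in the EpiSC lines. Those of Sox17, above background on 5 and 4 arrays, gave 2.97 and -0.18 in mES cells and -7.11 and 0.10 in the EpiSC lines. That of Gata4, above background on 1 array, gave 3.40 in mES cells and -0.525 in the EpiSC lines. The difference of Gata6 accordingly ran from -5.64 to -0.49 over its 3 probes and that of Sox17 from -10.08 to 0.28. The second probe of Dab2 gave a mES response of 0.50. The list's median was 0.56 in mES cells and -0.07 in the EpiSC lines, where 2 rose and 0 fell (Lama1 and Plat; 2 and 2 with the line as a block). With the mean over its 2 probes Gata4 had a difference of -1.93 in place of 0.07.

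Fibroblast markers moved in the same mES pair. Of 28, 9 were at least 2-fold higher and 0 lower in mES cells, among them S100a4 (2.37), Ccl2 (2.14), Dcn (1.97) and Twist2 (1.79), while the collagen genes Col1a1 (-0.07), Col1a2 (0.22) and Col3a1 (0.61) stayed under 2-fold. The list's summed linear level went from 51.8 to 78.2 on the mES arrays, with 27 and 28 of the 28 markers above background, and its part in the other mES values was not tested. In the EpiSC lines 0 of the 28 passed by limma (0 higher and 1 lower at an unadjusted p under 0.05), with a median of -0.16 against 0.52 in mES cells. Hp, an acute phase gene, was at -5.09 and -2.17 in mES cells and between -6.62 and -4.45 on the EpiSC arrays. The difference was -3.16 (-7.07 to 0.76). The growth factor gene Igf2 went from 1.25 to 2.98 in mES cells and lay between 3.26 and 4.08 on the EpiSC arrays (difference -1.76, -3.49 to -0.03).

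Most genes of the 2-cell-like state were lower in treated mES cells. This is a rare state of mES cells that resembles the early embryo. Zscan4c stood at 2.20 and -0.05 in mES cells, at -3.10 and -4.18 in the E3.5 line and at -3.87 and -4.54 in the E5.5 line. Tcstv1 (-2.32 in mES cells, difference 1.51, 0.28 to 2.74) and Tcstv3 (-1.87, difference 1.82, 0.06 to 3.58) had positive differences. Of 9 measured genes of the state 7 were at least 2-fold lower in mES cells, against 1.3% of all genes. Their median was -1.46 in mES cells and -0.81 in the EpiSC lines, where 0 passed by limma (0 higher and 3 lower at an unadjusted p under 0.05). The Zscan4, Tcstv and Usp17l genes are near-identical families, so a probe may read several copies.

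Some other genes were at least 2-fold lower in mES cells and under 2-fold in both EpiSC lines. Wnt3, the ligand that starts the primitive streak, went from -2.75 to -4.86 in mES cells. Its responses were -0.72 and -0.31 in the EpiSC lines, with a difference of 1.60 (-0.37 to 3.56). Notch4 (-1.63) and the protein kinase C gene Prkca (-1.85) had differences of 2.06 (0.50 to 3.63) and 2.16 (0.79 to 3.53), where Prkca was not above background on the untreated EpiSC arrays. Several large mES values came from probes that were above background on 1 array of the 6: Hsf3, Cstdc3 and Catsper4 on the treated mES array (at least 4.33-fold, 3.11-fold and 6.46-fold higher), and Kcnv1, St6galnac1 and Pramel4 on the untreated one (at least 3.78-fold, 3.61-fold and 3.13-fold lower). The EpiSC signals of these 6 genes were at background on all 4 arrays.

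**Figure D3:**
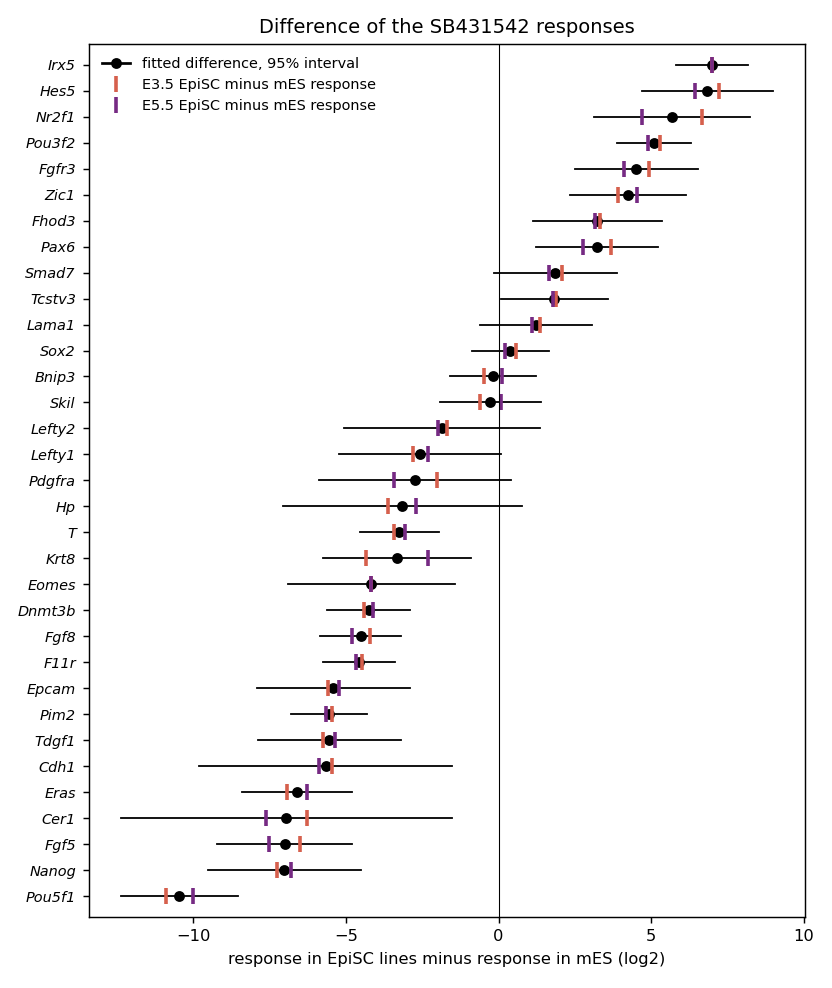
For each named gene the black point is the fitted difference (response in EpiSC lines minus response in mES cells, log2, x axis) with its 95% confidence interval from limma, and the orange and purple ticks are the E3.5 and the E5.5 line minus mES cells. The ticks of Pou5f1, Nanog, Hes5 and Pou3f2 lie close together and far from zero.

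Among the genes that went opposite ways, Irx5, a homeobox gene of the neural plate and heart, stood at -3.10 in untreated mES cells and below background in treated ones, at least 7.71-fold lower, and had responses of 4.03 in the E3.5 line and 4.06 in the E5.5 line. The untreated levels of the 3 lines spanned 0.16 log2 units. The rise in the EpiSC lines was 4.04 ± 0.26 (adjusted p = 0.0228) and the fitted difference 6.99 (5.81 to 8.17, adjusted p = 0.286), with a mES signal at background. Fhod3, an actin regulator, was above background on all arrays, and went from -0.42 to -1.93 in mES cells, from -0.97 to 0.83 in the E3.5 line and from -0.06 to 1.59 in the E5.5 line. Its difference was 3.23 (1.12 to 5.34), and its EpiSC response passed only with the line as a block (adjusted p = 0.157 without and 0.0469 with it). Krt8, a simple epithelial keratin, went from -0.59 to 0.46 in mES cells, from 3.86 to 0.57 in the E3.5 line and from 2.78 to 1.51 in the E5.5 line. The classes lay far apart before treatment and spanned 1.05 log2 units after it, with a difference of -3.32 (-5.74 to -0.90). Hkdc1, a hexokinase-like gene, had responses of 1.58, -2.61 and -3.29 and a difference of -4.53 (-6.52 to -2.54), with an EpiSC adjusted p of 0.0571 by limma and 0.0228 with the block.

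Other signalling lists lay between these patterns. Of 20 Wnt target genes 1 rose and 2 fell in the EpiSC lines (2 and 4 with the line as a block, Nkd1 at an adjusted p of 0.0355 and Sp5 at 0.0415 among them) and 5 were at least 2-fold lower in mES cells. The list's medians were nearly equal, -0.53 in the EpiSC lines and -0.57 in mES cells. Within it Lef1 and Sp5 were lower in all 3 lines (-1.36, -3.12 and -1.27; -1.26, -2.37 and -1.74), the Wnt inhibitor gene Dkk1 fell in the EpiSC lines (difference -4.22, -6.35 to -2.09), and the feedback genes Axin2 (1.79, 0.49 to 3.09) and Nkd1 (2.30, 0.92 to 3.69) had positive differences. The secreted Wnt modulator Sfrp2 rose by 3.32 in the EpiSC lines beside -0.03 in mES cells. Of 22 BMP ligand and target genes 0 rose and 1, Bmp8b, fell in the EpiSC lines by limma (9 higher and 4 lower at an unadjusted p under 0.05), and 4 rose and 3 fell with the line as a block. Those that rose with the block include the BMP response genes Id1 (adjusted p = 0.0282) and Id3 (0.0479), with differences of 1.60 (-1.37 to 4.57) and 1.42 (-0.96 to 3.81).

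**Figure D4:**
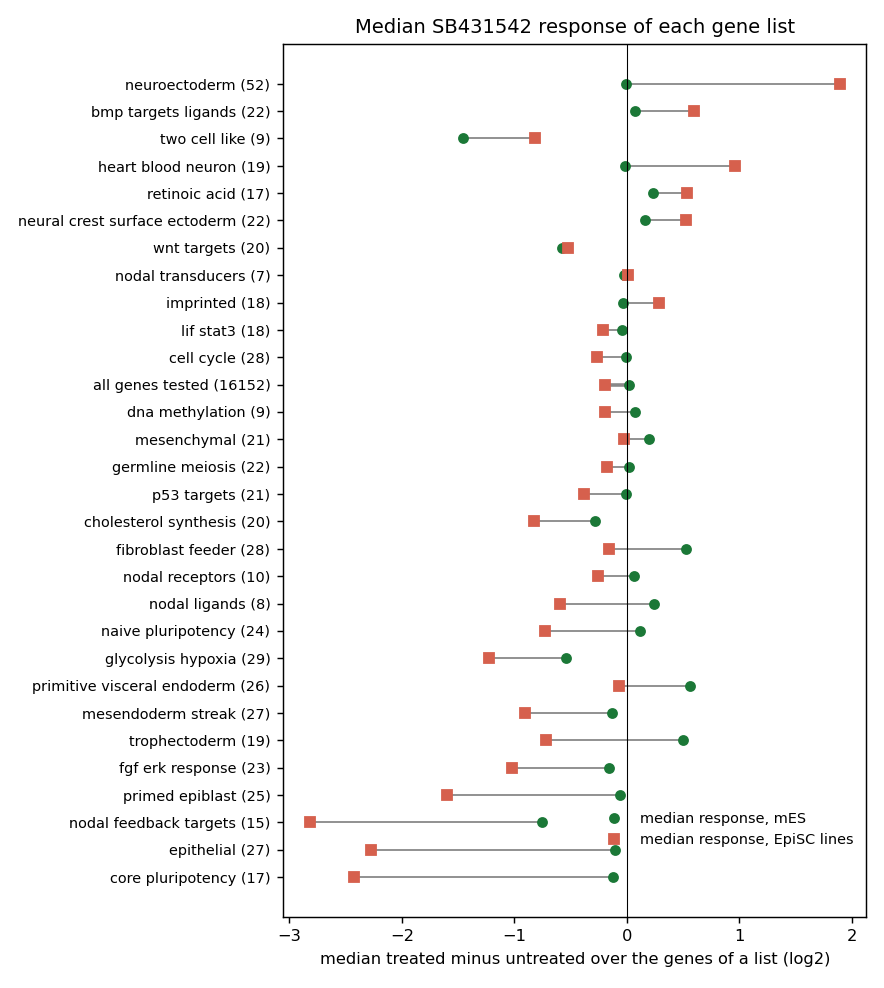
For each of 29 gene lists and for all genes tested, the median treated minus untreated log2 response is given in mES cells (green circles) and in the EpiSC lines (orange squares), with the number of genes measured in parentheses, sorted by the median difference. Core pluripotency and epithelial genes sit at the bottom with mES medians of -0.12 and -0.11, neuroectoderm at the top with -0.01, and the 2-cell-like list has its lower median in mES cells (-1.46 against -0.81).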

How the data were processed

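Labelled cRNA from 6 samples, 1 per group, was hybridised to one-colour Agilent arrays. The authors deposited scanner files whose processed signal is a background-corrected intensity per spot, made with Agilent Feature Extraction, whose version is given as 10.7.1.1 in the file headers and as 9.1 in the submitters' processing notes. The deposited value table held the same intensity for all 45018 spots. Each array's processed signals were taken as log2 minus the 75th percentile of its 43379 non-control spots, spots flagged as outliers were dropped, and a probe's repeat spots were averaged. Of 41174 probes 24375 could be named, giving 17016 genes, each read from its brightest probe. Genes that reached the scanner's call of well above background on 1 array or more, 16152 in all, were tested. The test was limma 3.58.1 in R 4.3.3 in a fit of 4 arms, with Benjamini-Hochberg adjustment at 0.05. On simulated data the test of the difference recovered 20% of 100 genes given a log2 difference of 4. It recovered 60% of 100 genes given one of 8. All adjusted p-values and intervals printed are from limma. The number of arrays limits the precision.

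The labels pair each treated with the untreated sample of the same cell line, so the fit with the line as a block (1 residual degree of freedom) is given where it changes the count of a list or the call of a gene described by its EpiSC response. Alternatives were normexp background correction on the median signal, median and quantile scaling, other filters and probe rules, a floor, slide 1 alone and leaving out each EpiSC array. The genes, lists and comparisons were chosen with earlier results of these data known. Because no difference passed, the planned classes and the naming rule on called differences were empty. They were replaced, after values were seen, by a 2-fold rule and by naming the 10 largest differences each way at an unadjusted p under 0.05, with both EpiSC lines on one side of mES cells, and up to 5 genes per pattern, beside fixed markers and genes from lists. A few genes that the naming rule picks are not reported here. Nodal and Fgf4 had no named probe and were not analysed here. Promoters were read from a RefSeq table.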

Additional observations from a re-analysis of the deposited data

Results flagged for a closer look

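In 11 of the named genes the mES response and both EpiSC responses passed 2-fold in opposite directions. They are the 5 genes named for each direction of that pattern and the marker Krt8. Each difference was tested with limma, and none passed after adjustment (adjusted p at or above 0.286).

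The EpiSC lines were higher and mES cells lower for the homeobox gene Irx5 (difference 6.991), the anchoring protein gene Akap6 (5.308), Pramel39 (5.240), Ccdc60 (3.956) and the actin regulator Fhod3 (3.232). Irx5 and Akap6 were not above background on the treated mES array, which allows mES changes of at least 7.71-fold and 1.59-fold lower. Ccdc60 was above background on neither mES array nor on the untreated EpiSC arrays. Its EpiSC change is at least 1.44-fold higher, and its difference turned with normexp.

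The EpiSC lines were lower and mES cells higher for the scavenger receptor gene Olr1 (-5.358), the interleukin-33 receptor gene Il1rl1 (-4.223), Foxf2 (-3.659), Hkdc1 (-4.530), the kinase gene Dyrk4 (-3.534) and the keratin gene Krt8 (-3.318). Olr1 and Foxf2 were above background on neither mES array, and their EpiSC changes are at least 2.31-fold and 3.77-fold lower. Dyrk4 was at least 3.13-fold lower in the EpiSC lines. The interval of Il1rl1 ran from -11.14 to 2.70, and its other probes gave mES responses of 0.71 and 0.42, under 2-fold. The second probe of Akap6 gave a mES response of -0.44. Fhod3, Pramel39, Hkdc1, Il1rl1 and Krt8 were above background on all 6 arrays. With the line as a block the EpiSC responses of Akap6, Pramel39, Fhod3, Hkdc1 and Il1rl1 passed at adjusted p-values from 0.0228 to 0.0484, where limma without it gave 0.0571 to 0.413.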

How the results depend on the processing

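No difference between the classes passed under any of the 14 fits that were run, where the smallest adjusted p ran from 0.0935 (normexp) to 0.456 (without the treated E3.5 array). The count of genes that rose in the EpiSC lines (144) was 242 over genes above background on all 6 arrays, 233 with a floor on dim signals and 346 with the line as replicate block. The count that fell (194) was 295 with normexp, 298 over genes above background on all 6 arrays and 464 with the line as replicate block. Leaving out 1 EpiSC array gave 0 to 91 genes that rose and 0 to 152 that fell, with fewer samples in the fit, and 0 to 3 for the genes lower in the effect averaged over the 3 lines. The pairing by line changed no call of the difference, since 0 passed with and without the block.

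Counts of the 2-fold patterns moved with the rule. Genes higher in all 3 lines (28) numbered 7 with normexp and 2 at 4-fold, and those lower (76) numbered 48 and 12. Genes higher in both EpiSC lines with mES cells under 2-fold (751) numbered 458 with normexp and 243 at 4-fold, and those lower (931) numbered 326 at 4-fold. Genes higher in mES cells with the EpiSC lines under 2-fold (77) numbered 43 with normexp, 33 at 4-fold and 147 within slide 1. Those lower (50) numbered 11 with normexp, 20 with all 6 arrays above background, 82 with no filter, 18 at 4-fold and 97 within slide 1. The opposite ways pattern with EpiSC higher (14) gave 2, 7, 8, 1 and 22 genes with normexp, all 6 arrays above background, the floor, 4-fold and slide 1. With EpiSC lower (14) it gave 5, 8, 1 and 58 with normexp, all 6 arrays above background, 4-fold and slide 1.

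Of 1054 values of the difference for 77 named genes under alternatives, 1031 kept direction and side of the threshold and 23, in 10 genes, turned sign. With normexp Ccdc60 stood at -0.395, Gata4 at -0.434, Pramel4 at -0.078 and Tbx3 at -0.051. With the mean over probes Gata4 stood at -1.929. Within slide 1 Chl1 stood at -0.235, Col1a1 at -1.690, Gata4 at -0.003, Skil at 0.084 and Tbx3 at -1.962. Leaving out 1 EpiSC array gave ranges of -0.928 to 1.907 for Chl1, -1.097 to 1.470 for Col1a1, -2.458 to 0.453 for Esrrb, -0.326 to 0.464 for Gata4, -1.872 to 0.842 for Nr0b1, -0.283 to 1.842 for Samd5, -0.667 to 0.135 for Skil and -0.949 to 1.844 for Tbx3. The cause was not tested.

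A random slide block could not be fitted, and without an mES array there is no contrast, so neither was run. Genes at background in an arm have bounds in place of folds.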

Other observations

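The following 5 genes, chosen after their values were seen and from no list, were at least 2-fold higher in treated mES cells and under 2-fold in both EpiSC lines. The chemokine gene Cxcl1 went from -2.94 to -0.70 in mES cells, with responses of 0.79 and -0.42 in the E3.5 and E5.5 EpiSC lines. The complement gene Cfb had responses of 1.75, 0.63 and 0.07, Lbp, which binds bacterial lipopolysaccharide, 1.33, 0.30 and 0.36, and Saa1 1.19, 0.28 and 0.06. The adipokine gene Rarres2 stood at -2.02 and 0.89 in mES cells and between -3.48 and -0.63 on the EpiSC arrays. The intervals of the differences of these 5 genes all held zero, and the fibroblast markers that moved in the same mES pair are given above.

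Some genes of later neurons and of retinoic acid signalling rose in the EpiSC lines. Among 19 genes of heart, blood and neurons 2 rose and 0 fell (4 and 1 with the line as a block), the neuronal genes Elavl4 (difference 4.10, 1.89 to 6.31) and Gap43 (3.33, 2.08 to 4.59). The retinoic acid binding protein gene Crabp2 (3.53, 1.63 to 5.43) and Hoxb2 (3.28, 1.48 to 5.07) rose, and Dhrs3, which reduces retinal, fell (-4.38, -5.92 to -2.84). Their mES responses lay between -0.91 (Gap43) and 0.56 (Crabp2). Among 18 imprinted genes Ndn rose and Phlda2 fell in the EpiSC lines (2 rose and 1 fell with the block), with differences of 2.11 (0.92 to 3.29) and -3.28 (-5.61 to -0.94).

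No gene of the next 4 lists passed in the EpiSC lines by limma. Of 18 LIF and Stat3 genes 1 was higher and 2 lower at an unadjusted p under 0.05, 1 fell with the line as a block, and 1 was at least 2-fold higher in mES cells. Of 28 cell cycle genes 2 were higher and 2 lower, 1 rose and 1 fell with the block, and 0 passed 2-fold in mES cells. Of 21 p53 targets 2 were higher and 4 lower, 2 fell with the block, 5 were at least 2-fold lower in both EpiSC lines, and 0 passed 2-fold in mES cells. Of 21 mesenchymal genes 5 were higher and 1 lower, 1 rose with the block, and 3 were at least 2-fold higher in mES cells. Cholesterol synthesis genes had 0 of 20 called by limma, 0 higher and 11 lower at an unadjusted p under 0.05, with medians of -0.83 in the EpiSC lines and -0.29 in mES cells. Of 22 neural crest and surface ectoderm genes 2 rose, Pax3 and Nr2f2, and 6 rose and 2 fell with the block. Of 19 trophectoderm genes 1 rose and 2 fell (1 and 3 with the block), and 4 were at least 2-fold higher in mES cells. Of 22 germline genes 1 fell, Tex19.1 (3 with the block), and of 9 DNA methylation genes 1 fell, Dnmt3b.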
